A study of Mus musculus with 12 samples.

Results

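The genes described here are 10 markers of microglia, including the genes of all 3 chains of complement C1q: C1qa, C1qb, C1qc, Aif1, Csf1r, Cx3cr1, P2ry12, Tmem119, Tyrobp and Fcer1g. They were taken by symbol from the 38720 genes of the deposited tables, and all 10 had reads in both tables. RNA-seq was performed on retinas of newborn (P0) mice, whose strain the labels give as C57/BL6 for every sample, in 4 groups of 3 libraries each, 12 in all. The mKO mice carried Math5-Cre and Ezh2 flox/flox, in which Cre, driven from the Math5 locus, removes the exons of the catalytic SET domain of the histone methyltransferase Ezh2. The control samples were named wild type in the labels, while the study's methods name Ezh2 flox/flox littermates as its default controls, so whether these samples carried floxed alleles without Cre is uncertain. They are called WT throughout. Math5-Cre is active in the retinal ganglion cell (RGC) lineage and in part of the RGCs only, so the cells measured in mKO are a mixture of recombined and other cells. From each genotype, cells bound by magnetic beads with an antibody to Thy-1 (CD90) were called RGCs, and the remaining retinal cells were called non-RGCs. The sources used here did not state whether the 3 libraries of a group came from separate litters or from pooled pups, so p-values measure the spread between these libraries, which may in part be technical.

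Microglia are the resident macrophages of the retina and the brain and enter the developing retina before birth. Csf1r is the receptor on which their survival depends, Cx3cr1 is the receptor for the neuronal chemokine fractalkine, and P2ry12 is a purinergic receptor that guides their processes. Aif1 encodes the calcium-binding protein Iba1, and Tmem119 is a membrane protein used to tell microglia from other macrophages. Tyrobp and Fcer1g encode small adaptor proteins that carry ITAM signals from surface receptors such as Trem2 and Fc receptors. C1q is assembled from A, B and C chains, starts the classical complement cascade, and in the developing visual system tags synapses that microglia remove.

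The C1q chain genes lie side by side on the minus strand of chromosome 4 in GRCm38, the build that mm10 names. C1qb spans chr4:136880129-136886187, C1qc spans chr4:136889804-136893065 and C1qa spans chr4:136895917-136898803, with 3616 bases between C1qb and C1qc and 2851 bases between C1qc and C1qa. None of the 3 overlapped another annotated gene. Levels moved together across the libraries for all 10 genes, and not for these neighbours alone. The stretches just upstream of the annotated exons are shown for C1qb and C1qc, the C1q genes for which promoter sequence was at hand. They are RefSeq promoter sequence on GRCm38.p6, minus strand, 5′ to 3′, for C1qb from chr4:136886201-136886400 and for C1qc from chr4:136893066-136893164. Capitals mark GAGGAA or its reverse complement TTCCTC, the core that the macrophage transcription factor PU.1 (Spi1) is known to prefer.
C1qb: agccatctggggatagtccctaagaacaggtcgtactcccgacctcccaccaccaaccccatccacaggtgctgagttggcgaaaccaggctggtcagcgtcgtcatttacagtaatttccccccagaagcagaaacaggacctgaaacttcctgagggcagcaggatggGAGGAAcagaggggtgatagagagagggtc
C1qc: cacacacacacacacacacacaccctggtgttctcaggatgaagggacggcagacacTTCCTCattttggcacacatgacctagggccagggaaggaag
Promoter windows of 300 bases were at hand for 6 of the 10 genes, and the motif was present on either strand in 3 of them (C1qb, C1qc and Aif1) and absent from those of Cx3cr1, P2ry12 and Fcer1g. Of all 32851 windows in the table, 28.3% held it, so its presence is a description of the letters only.

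Of the other genes, Aif1 was at chr17:35170991-35176068, Csf1r at chr18:61100598-61132149 and Cx3cr1 at chr9:119901616-120069879. P2ry12 was at chr3:59216272-59262871, Tmem119 at chr5:113793729-113800516, Tyrobp at chr7:30413760-30417585 and Fcer1g at chr1:171229572-171234365. The exons of Csf1r overlapped other genes over 873 bases, chiefly Hmgxb3 on the opposite strand, and those of Cx3cr1 and P2ry12 over 78 and 9 bases. The strand setting of the counting was not given in the sources used here, so reads in these overlaps cannot be assigned to one strand with certainty.

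The libraries held between 7139633 and 13014004 reads on genes. Levels are given in RPM, the reads of a gene per 1000000 reads on genes, and a count of 0 allows up to 3 reads, or 0.231 to 0.42 RPM. Within each group they are lettered A, B and C by decreasing depth, and the letters link no library of one group to a library of another. Ezh2 itself was read at 119 to 129 RPM in mKO RGCs and at 95.2 to 136 in WT RGCs, and limma made no call for it (log2 difference 0.09, SE 0.13, adjusted p = 0.64). These whole-gene reads include exons outside the deletion and so do not check it. The study described a change of Ezh2 in its RNA-seq of mKO RGCs, which these values do not show. It also reported reduced Ezh2 in mKO RGCs by qPCR and Western blot. All 12 RGC markers were higher in RGCs than in non-RGCs in both genotypes, beside 26.4% of all genes in WT and 29.1% in mKO. Thy1, which encodes the captured antigen, was read at 0.175 to 0.811 RPM in WT non-RGCs but at 6.78 to 9.24 in mKO non-RGCs. In mKO non-RGCs 8 of the 12 RGC markers were called higher than in WT, beside 4.18% of all genes. One further library stood apart for the 10 genes: WT non-RGC library C held 31 reads on them, against 304 and 359 in the other WT non-RGC libraries. Results that rest on it are given with and without it.

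Reads on the 10 genes were found mainly in the RGC fraction. Their summed level was 303 ± 63.5 RPM in WT RGCs and 228 ± 81.4 in mKO RGCs (SD, n = 3), against 19.6 ± 14.7 in WT non-RGCs and 18.4 ± 7.29 in mKO non-RGCs. The ratio of the RGC to the non-RGC mean was 15.4 in WT and 12.4 in mKO, and 10.8 in WT when non-RGC library C was left out. For comparison, the summed level of the 12 RGC markers was 5.18 times as high in RGCs as in non-RGCs in WT and 2.92 times in mKO. Since these are bulk libraries, fewer cells of a type and less RNA per cell cannot be told apart in any of the values that follow.

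**Figure D1:**
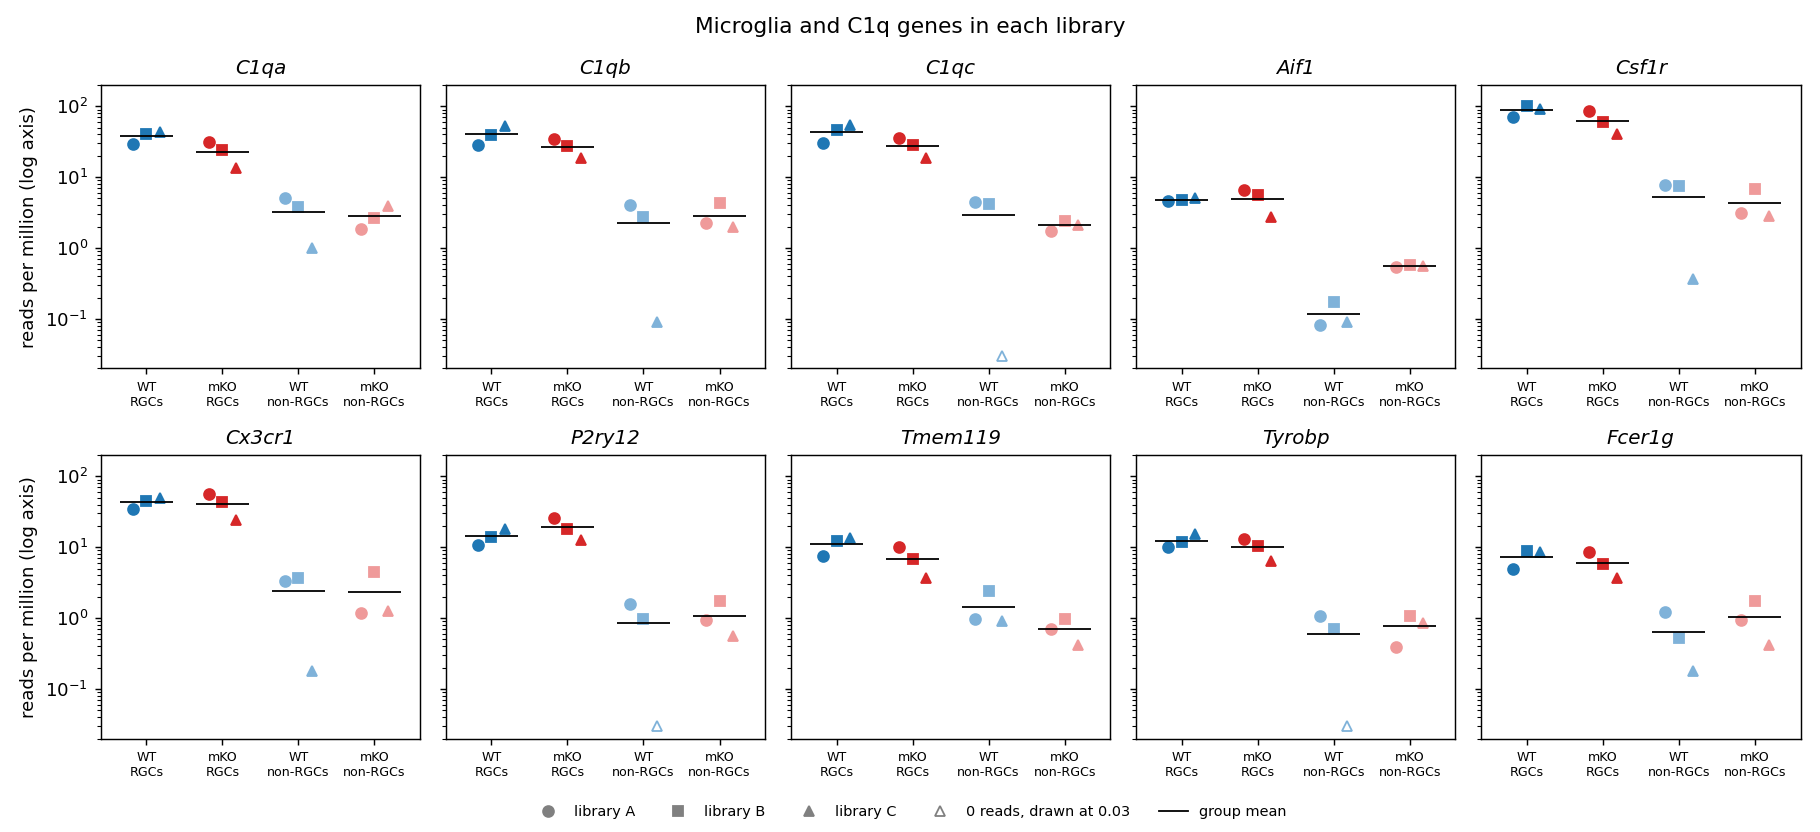
RPM (reads per 1000000 reads on genes) on a log axis for each of the 10 genes in every library of the 4 groups, with a line at each group's mean and open symbols, for libraries with 0 reads. Every RGC library of either genotype lies above every non-RGC library for each gene, and WT non-RGC library C lies lowest among the WT non-RGC libraries for 9 of the 10 genes.

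C1qa was read at 28.9, 40.9 and 43.0 RPM in WT RGC libraries A, B and C and at 30.9, 23.8 and 13.3 in the mKO RGC libraries. In non-RGCs the same gene stood at 5.02, 3.76 and 0.991 RPM in WT and at 1.87, 2.62 and 3.92 in mKO. The fractions did not overlap in either genotype, whereas within RGCs the highest mKO library lay above the lowest WT library.
C1qb had 28.7, 39.6 and 52.4 RPM in the WT RGC libraries and 34.1, 27.6 and 18.9 in the mKO RGC libraries. Its non-RGC values were 4.03, 2.71 and 0.0901 in WT and 2.26, 4.28 and 1.96 in mKO. C1qb thus followed C1qa in the RGC libraries, highest in library C of WT and in library A of mKO.
For C1qc the WT RGC values were 30.7, 45.9 and 54.6 RPM and the mKO RGC values 36.0, 28.1 and 18.7. It was at 4.52 and 4.11 RPM in WT non-RGC libraries A and B with 0 reads in library C, and at 1.71 to 2.43 in mKO non-RGCs. Both C1qb (1 read) and C1qc (0 reads) were therefore at or under 3 reads in that one library.

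Csf1r was the gene of the group with the most reads, at 70.2, 101 and 91.7 RPM in WT RGCs and 86.8, 60.7 and 40.7 in mKO RGCs. In non-RGCs it was read at 7.65, 7.52 and 0.360 RPM in WT and at 3.12, 6.90 and 2.80 in mKO.
Cx3cr1 stood at 34.96, 45.4 and 49.9 RPM in WT RGCs and at 55.7, 43.6 and 24.5 in mKO RGCs, so that the mKO libraries lay on both sides of the WT libraries. P2ry12 had 10.7, 14.1 and 18.1 RPM in WT RGCs and 26.0, 18.4 and 12.7 in mKO RGCs. Along with Aif1 it was one of 2 genes whose mean RPM was higher in mKO RGCs than in WT RGCs, and for both the groups overlapped. Aif1 was even among the WT RGC libraries, at 4.54, 4.80 and 5.0 RPM, and spread in mKO RGCs, at 6.53, 5.55 and 2.74. It had 1, 2 and 1 reads in the WT non-RGC libraries and 7, 6 and 4 reads in the mKO non-RGC libraries.
The remaining genes were Tmem119, at 11.1 ± 3.14 RPM in WT RGCs and 6.87 ± 3.18 in mKO RGCs, Tyrobp at 12.4 ± 2.66 and 9.99 ± 3.41, and Fcer1g at 7.40 ± 2.20 and 6.04 ± 2.46 (SD, n = 3). In the non-RGC libraries of either genotype the highest value of these 3 genes was 2.45 RPM, for Tmem119.

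Per kilobase of exon, which scales levels by gene length, C1qb and C1qa were highest in both genotypes. The length is that of all annotated exons of a gene joined, 1040 bases for C1qa, 1088 for C1qb and 1931 for C1qc, and the order depends on it. Before this scaling C1qc was the highest of the 3 chains in WT RGCs, at 43.7 RPM against 40.3 for C1qb and 37.6 for C1qa. In WT RGCs the order was C1qb (37.0 ± 10.9 RPM per kb), C1qa (36.1 ± 7.33), C1qc (22.6 ± 6.28), Tyrobp (18.6 ± 3.98), Csf1r (15.2 ± 2.78), Cx3cr1 (9.64 ± 1.70), Fcer1g (8.46 ± 2.51), P2ry12 (5.62 ± 1.46), Tmem119 (4.81 ± 1.36) and Aif1 (3.12 ± 0.150) (SD, n = 3). Of the 9 pairs of neighbours in this order, 7 had library ranges that overlapped. The exceptions were Csf1r above Cx3cr1 and Tmem119 above Aif1. In mKO RGCs C1qb (24.7 ± 7.03) and C1qa (21.8 ± 8.503) were followed by Tyrobp (14.98 ± 5.11) and C1qc (14.3 ± 4.49), with Tmem119 (2.97 ± 1.37) lowest, and the ranges of all 9 neighbouring pairs overlapped. By mean RPM the order of groups was the same at the top for 8 genes, WT RGCs above mKO RGCs, and reversed for Aif1 and P2ry12. Below them, WT non-RGCs ranked above mKO non-RGCs for 5 genes and under them for the other 5.

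The difference between the fractions was tested for each gene with limma on log2(normalized reads + 1), fitted across all genes with p-values adjusted by Benjamini-Hochberg. All 10 genes were higher in RGCs in WT and in mKO, where 26.4% and 29.1% of all 16502 genes tested were called higher and 22.6% and 25.4% lower. In WT the log2 difference ran from 3.05 for Tmem119 to 5.26 for C1qc, with limma adjusted p from 2.7e-07 to 0.0013. In mKO it ran from 2.67 for Fcer1g to 4.43 for Cx3cr1, with limma adjusted p from 1.7e-05 to 0.0099. The median over the 10 genes was 4.87 in WT and 3.54 in mKO, beside medians of -0.03 and -0.02 over all genes tested. In WT all 10 genes were called and at least 8-fold higher in RGCs, as were 4.28% of all genes, and in mKO 8 of the 10 (not Aif1 and Fcer1g), as were 4.3% of all genes. The libraries of the 2 fractions did not overlap for any of the 10 genes, as for 29.5% of all genes in that direction in WT and 33.8% in mKO. With the libraries scaled to total reads the split of all calls in mKO turned from 4806 higher and 4193 lower to 4226 higher and 5662 lower, and the 10 genes were still called higher.

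**Figure D2:**
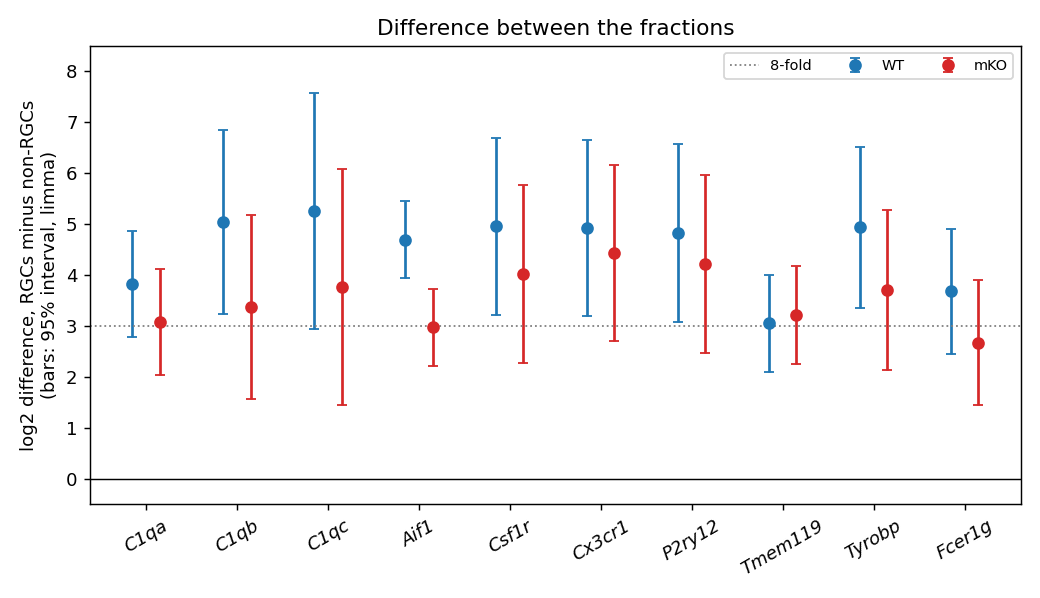
Log2 difference of RGCs minus non-RGCs for each gene in WT and in mKO, with 95% intervals from limma and a dotted line at 8-fold. All 20 intervals lie above 0, and the WT points reach from 3.05 to 5.26.

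Among the C1q chains the log2 differences between fractions in WT were 3.83 (SE 0.48) for C1qa, 5.04 (SE 0.84) for C1qb and 5.26 (SE 1.07) for C1qc, and in mKO 3.08, 3.37 and 3.76. The errors were the same in mKO, because a single fit over all groups gave both. The wide errors of C1qb and C1qc in both genotypes came with the near absence of their reads in WT non-RGC library C, since the differences are of log2 values. As a ratio of group means, C1qa was 11.5 times, C1qb 17.7 times and C1qc 15.2 times as high in WT RGCs as in WT non-RGCs. Without non-RGC library C the differences of the 10 genes in WT ran from 2.83 to 4.62 on the log2 scale with a median of 3.57, and limma called all 10 higher. Leaving out that WT library also moved the smallest limma adjusted p of the 10 genes in mKO from 1.7e-05 to 3.8e-07. For Aif1 the ratio rested on 165 reads over the WT RGC libraries and 4 over the WT non-RGC libraries, and came to 41.4 with an exact 95% counting interval of 15.9 to 154. In mKO the ratio of means for Aif1 was 8.78.

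The 10 genes varied together. Between pairs of them Pearson's r of the log2 values over the 12 libraries was 0.84 to 0.995 with a median of 0.96, and over the 6 RGC libraries 0.32 to 0.99 with a median of 0.90, as a description of libraries that share their fraction. In mKO RGCs library A was highest and library C lowest for all 10 genes, with summed levels of 308, 231 and 145 RPM. In WT RGCs library A was lowest for all 10 genes, and the summed levels were 231, 325 and 352. The highest and lowest mKO RGC libraries thus differed 2.12 times, and the highest and lowest WT RGC libraries 1.52 times.

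The genes outside the group whose pattern over the 12 libraries was most like that of the 10 were found by Pearson's r with the mean of their standardized log2 values, among 16502 genes. In order they were Cyth4 (r = 0.997), Bin2 (0.996), Pld4 (0.994), Klhl6 (0.994), Arhgap30 (0.991), Myo1f (0.990), P2ry13 (0.990), Arhgap25 (0.990), Fcgr3 (0.989), Trem2 (0.989), Emr1 (0.988) and Spi1 (0.987). Bin2, P2ry13, Trem2 and Spi1 were also on a list of 25 other microglia genes, and Fcgr3 and Trem2 on a list of ITAM partners. Of the 10 genes themselves, Csf1r (0.995) and Cx3cr1 (0.993) lay closest to the shared pattern and Tmem119 (0.915) farthest from it. The likeness rests largely on the gap between the fractions, which all of these genes share.

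The mKO and WT libraries were then compared within RGCs to ask whether loss of Ezh2 in the RGC lineage came with a change in these genes. None of the 10 genes passed the threshold of the limma test, although 37.5% of the 16085 genes tested did, 16.3% higher and 21.2% lower in mKO. At an unadjusted p under 0.05 there were 4 of the 10 (C1qa, C1qb, C1qc and Csf1r), beside 47.6% of all genes, and all 4 had lower values in mKO. The same 4 also had a fold of 1.5 or more, as did 6.22% of all genes among those lower in mKO, while 10% of all genes and none of the 10 had both in the other direction. The log2 difference was negative for 9 of the 10 genes with a median of -0.56, beside -0.0024 over all genes tested. Aif1 was among the 9, at -0.16, although its mean in RPM was higher in mKO (4.94 against 4.78 in WT). The fit used log2 values scaled by size factors and not RPM. With total reads as the scale the calls over all genes turned from 2622 higher and 3405 lower to 3857 higher and 2238 lower, with a median log2 difference of 0.12, and again none of the 10 was called.

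Normalized by the authors' size factors, C1qa stood at 351, 273 and 155 reads in mKO RGC libraries A, B and C and at 361, 518 and 532 in the WT RGC libraries. C1qa was the one gene of the 10 whose groups did not overlap on this scale, with mKO lower, beside 28.2% of all genes tested. Its log2 difference was -0.91 (SE 0.30, 95% interval -1.62 to -0.20, limma adjusted p = 0.051). C1qc had 409, 322 and 218 normalized reads in mKO RGCs and 383, 581 and 676 in WT RGCs, a log2 difference of -0.79 (SE 0.28, interval -1.45 to -0.14, limma adjusted p = 0.061). C1qb had 387, 316 and 220 in mKO RGCs and 359, 502 and 649 in WT RGCs, a log2 difference of -0.70 (SE 0.27, interval -1.33 to -0.07, limma adjusted p = 0.077). In C1qb and C1qc the highest mKO library lay above the lowest WT library. For Csf1r the log2 difference was -0.66 (SE 0.26, interval -1.28 to -0.03, limma adjusted p = 0.090) and for Tmem119 -0.88 (SE 0.38, interval -1.77 to 0.01, limma adjusted p = 0.11).

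The other differences within RGCs were smaller than their errors allow to separate from 0. They were -0.47 (interval -1.13 to 0.19) for Tyrobp, -0.44 (-1.28 to 0.39) for Fcer1g, -0.26 (-0.93 to 0.41) for Cx3cr1, -0.16 (-0.91 to 0.59) for Aif1 and 0.26 (-0.42 to 0.93) for P2ry12 on the log2 scale. Single libraries decided the calls. Without mKO RGC library A limma called C1qa (log2 difference -1.17, adjusted p = 0.035), C1qc (-1.002, adjusted p = 0.049) and Csf1r (-0.92, adjusted p = 0.032) lower in mKO, and without WT RGC library A it called C1qb (-0.93, adjusted p = 0.038) and C1qc (-1.03, adjusted p = 0.031).

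**Figure D3:**
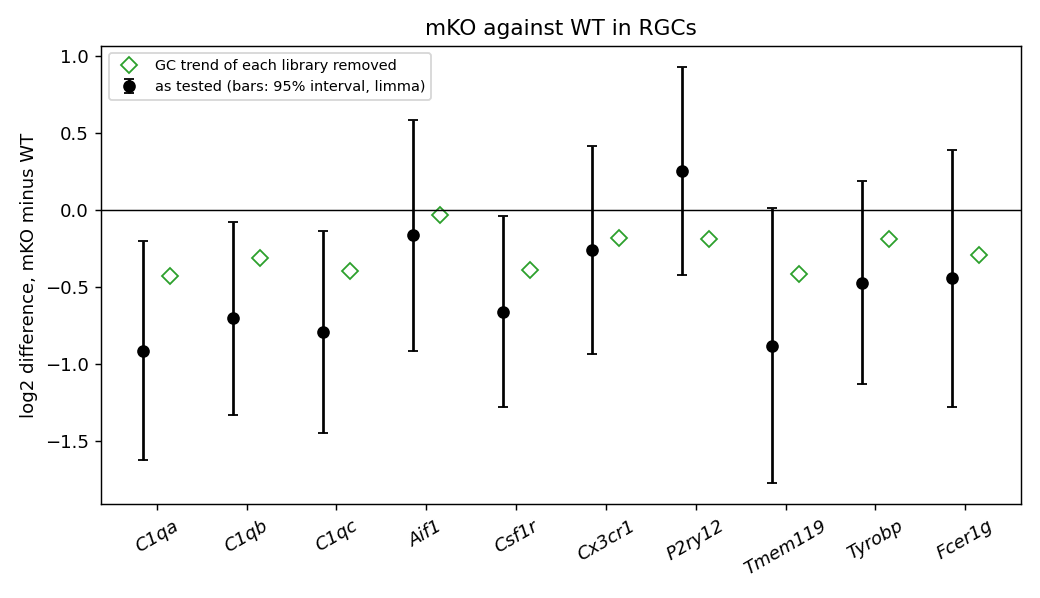
Log2 difference of mKO minus WT in RGCs for each gene, with 95% intervals from limma (black) and the value after each library's trend with GC content was removed (open green). The intervals of C1qa, C1qb, C1qc and Csf1r lie below 0, none of the 10 adjusted p-values is under 0.05, and all values after removal of the trend lie between -0.43 and -0.03.

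The size of the difference went with the GC content of the gene. Over the 10 genes and 25 other microglia genes, Spearman's rho between the GC content of the exons and the log2 difference in RGCs was -0.80 (35 genes, which share libraries and base composition), and over all 15873 genes with a known GC content it was -0.63. The 11 of these microglia genes with a GC content of at least 54% all had lower values in mKO, with a median log2 difference of -0.72, and they included C1qa (59.5% GC), Tmem119 (59.1%), C1qc (57.5%), C1qb (57.4%), Tyrobp (54.8%) and Csf1r (54.5%). The 12 with a GC content under 48% had a median of 0.18, with 8 values above 0, and included P2ry12 (38.6% GC). Genes between these limits all had lower values in mKO as well, from -1.02 for Trem2 (51.0% GC) to -0.11 for Itgam (48.9% GC). When each library's trend with GC content was removed, 15% of all genes were called in place of 37.5%. The differences of the 10 genes then ran from -0.43 for C1qa to -0.03 for Aif1 with a median of -0.30, P2ry12 turned to -0.19, and the smallest limma adjusted p was 0.37. Trem2 then stood at -0.91 and Itgam at -0.10.

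**Figure D4:**
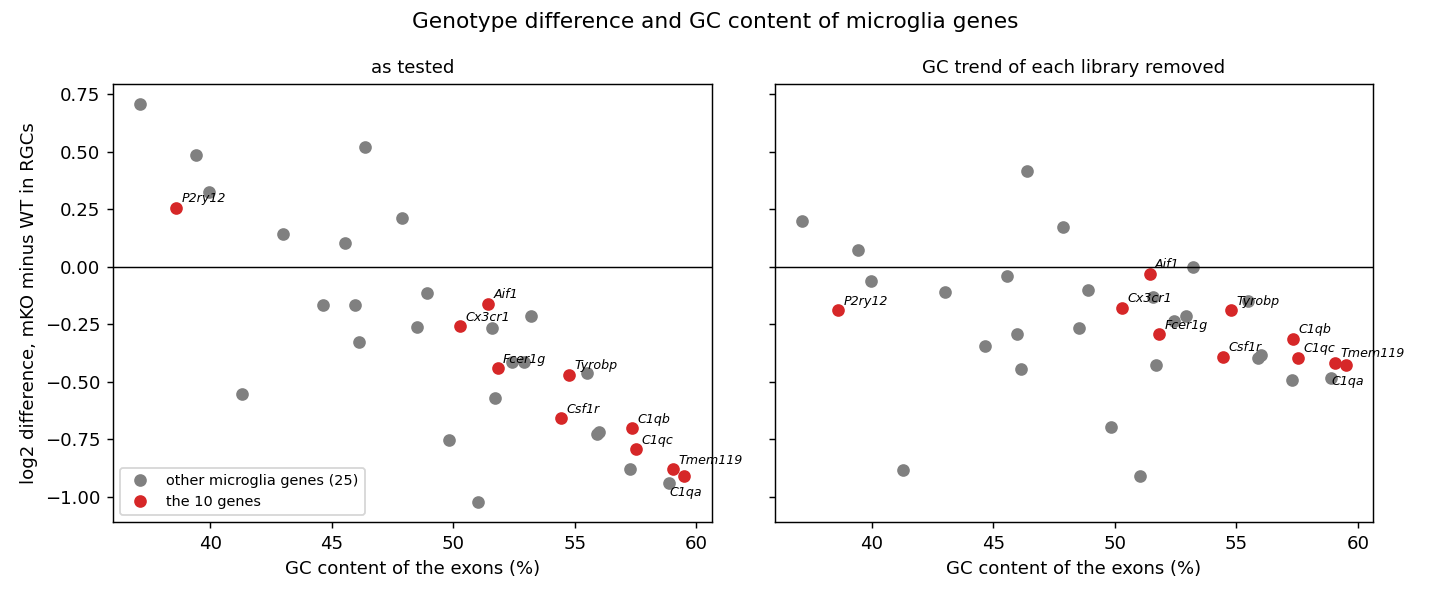
Log2 difference of mKO minus WT in RGCs against the GC content of the exons (%) for the 10 genes (red) and 25 other microglia genes (grey), as tested on the left and with each library's GC trend removed on the right. On the left the values fall with GC content (rho = -0.80) and on the right less so (rho = -0.44).

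Within the group, the shares of reads taken by some genes did not overlap between genotypes in RGCs. The C1q chains took 32.8, 34.4 and 35.04% of the reads on the 10 genes in mKO RGC libraries A, B and C and 38.2, 38.9 and 42.6% in the WT RGC libraries. For the single libraries the exact (Clopper-Pearson) 95% intervals reached from 31.4 to 37.3% in mKO and from 36.4 to 44.2% in WT, and cover counting error only. P2ry12 took 8.46, 7.95 and 8.72% in mKO and 4.63, 4.35 and 5.14% in WT, and Cx3cr1 16.9 to 18.9% in mKO and 13.98 to 15.1% in WT. Shares of C1qa, C1qc and Tmem119 were lower in all mKO libraries and those of P2ry12 and Cx3cr1 higher, and the shares of the other 5 genes overlapped. Shares within a library add up to a fixed total, so lower shares of some genes come with higher shares of others. The separations are therefore not independent of each other. Each of these separations has an exact two-sided permutation p of 0.10, the smallest that 3 libraries against 3 can give, over 11 shares compared, and none can pass 0.05. The genes with lower shares are richer in GC than P2ry12 and Cx3cr1, and the part of GC content in the shares was not tested.

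In non-RGCs 8 of the 10 genes had enough reads to be tested against a minimum mean of 10 normalized reads in either genotype, and Aif1 and Tyrobp did not. Limma called none of the 8, beside 10.6% of 15326 genes (4.18% higher and 6.43% lower), and none had an unadjusted p under 0.05, beside 29.9% of all genes. With total reads as the scale the calls over all genes were 1351 higher and 454 lower in place of 641 and 985. Tmem119 was the one whose groups did not overlap, with mKO lower, beside 19.2% of all genes. The log2 differences ran from -1.04 (SE 0.50) for Tmem119 to 0.96 (SE 0.98) for C1qb, with a median of 0.41. They turned on WT non-RGC library C. Without it all 8 were negative, from -1.26 for Tmem119 to -0.0019 for Fcer1g with a median of -0.91, and limma called C1qc lower in mKO (-1.17, SE 0.28, adjusted p = 0.042).

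Whether the genotype effect differed between the fractions was tested by their interaction. None of the 10 genes was called by limma, beside 0.0969% of 16517 genes, all lower (0 were called higher). Aif1 alone had an unadjusted p under 0.05, beside 9.66% of all genes, with a log2 difference of effects of -1.71 (SE 0.49, limma adjusted p = 0.41), which rests on 4 reads in WT non-RGCs. The median over the 10 genes was -0.96, and 0.15 without WT non-RGC library C. For the C1q chains the intervals were wide, from -4.75 to 1.78 for C1qc.

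Most genes of the list of 25 other microglia genes showed the same split between fractions. Of the 25 other microglia genes, 23 were higher in RGCs in WT and 22 in mKO, with median log2 differences of 4.43 and 3.56. Over all genes 26.4% were called higher in RGCs in WT and 29.1% in mKO. In the comparison of genotypes in RGCs, 1 of the 25 was called, lower in mKO, beside 16.3% of all genes higher and 21.2% lower, and the median was -0.27. It was Spi1, which encodes the macrophage transcription factor PU.1, at 10.1, 11.4 and 12.3 RPM in WT RGCs and 9.76, 6.28 and 4.12 in mKO RGCs. Its log2 difference was -0.94 (SE 0.29, limma adjusted p = 0.042), and -0.48 (limma adjusted p = 0.32) with the GC trend removed. In non-RGCs limma called none of the 14 that could be tested.

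Among the genes of phagocytic early postnatal microglia, 13 in all, the lysosomal proteases Ctsd (198 ± 20.5 RPM in WT RGCs against 140 ± 9.59 in mKO RGCs) and Ctsb, the lipid carrier Apoe and the lysosomal membrane protein Cd63 were lower in mKO RGCs. Their log2 differences were -0.62, -0.48, -0.73 and -0.41 with limma adjusted p from 0.0017 to 0.030, and these 4 of 13 stand beside 21.2% of all genes called lower. Their log2 differences between fractions in WT ran from -0.13 to 0.48, and limma called Ctsb alone of the 4 higher in RGCs. Of all 13, limma called 4 higher and 2 lower in RGCs than in non-RGCs in WT, with a median log2 difference of 0.26. In mKO it called 5 higher and 4 lower, with a median of 0.13. Over all genes 26.4% were called higher and 22.6% lower in WT, and 29.1% and 25.4% in mKO. With the GC trend removed Ctsd and Ctsb were still called lower in mKO RGCs, and Apoe and Cd63 were not. In non-RGCs Spp1, a secreted phosphoprotein that RGCs also make, was lower in mKO (log2 difference -2.94, SE 0.39, limma adjusted p = 0.0060) and Gpnmb, a glycoprotein shared with pigment cells, was higher (1.82, SE 0.28, limma adjusted p = 0.0086). These were the only calls among the 10 genes of the list tested there, beside 4.18% of all genes higher and 6.43% lower. With 1 call in each direction they are no result about the list.

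The partners of Tyrobp and Fcer1g in ITAM signalling were 20 genes, of which 17 could be tested in RGCs. All 17 were higher in RGCs than in non-RGCs in WT and 16 in mKO, beside 26.4% and 29.1% of all genes. Between genotypes in RGCs none of the 17 was called, with a median of -0.25. The pair with the highest mean over all 12 libraries were Inpp5d, a phosphatase that restrains this signalling, at 13.7 ± 3.30 RPM in WT RGCs and 12.2 ± 5.19 in mKO RGCs, and the kinase Syk at 9.85 ± 1.76 and 9.12 ± 2.38 (SD, n = 3).

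Of 36 further complement genes, 21 could be tested in RGCs, and 4 were higher and none lower in mKO RGCs with a median of -0.01. Over all genes 16.3% were called higher and 21.2% lower, so the share called higher is near the background and is no result about complement. All 4 encode proteins that restrain or bind complement on cell membranes. Cd59a, which blocks the membrane attack complex, stood at 10.7 ± 0.724 RPM in WT RGCs and 19.8 ± 0.890 in mKO RGCs (log2 difference 0.76, SE 0.11, limma adjusted p = 0.0028). It was also higher in mKO non-RGCs (1.44, SE 0.23, limma adjusted p = 0.0087). Cd55, which speeds the decay of C3 convertase, was at 8.20 ± 1.18 in WT RGCs and 15.7 ± 1.35 in mKO RGCs (0.81, SE 0.16, limma adjusted p = 0.0072). Cd46, a cofactor for the cleavage of C3b, rose by 1.22 on the log2 scale (limma adjusted p = 0.0081) from a level of 1.52 ± 0.347 RPM (SD, n = 3). The complement receptor Cr2 was also called higher (2.07, limma adjusted p = 0.0088), with 6 reads in all over the WT RGC libraries and 40 over the mKO RGC libraries. The ratio of its reads, scaled to depth, was 6.10 with an exact 95% counting interval of 2.57 to 17.6. With the GC trend removed limma called 2 of the 4, Cd59a and Cr2. In non-RGCs Clu, a secreted chaperone that binds the terminal complex, was also called higher (0.68, SE 0.18, limma adjusted p = 0.044). C3, the target of the C1q cascade, was not called in RGCs (log2 difference 0.19, limma adjusted p = 0.63).

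Of 24 genes that share the C1q domain or bind C1q but are no part of C1q, 20 could be tested between fractions, and 5 were higher and 6 lower in RGCs in WT. Over all genes 26.4% were called higher and 22.6% lower, so these counts are near the background and are no result about the list. Of 21 tested between genotypes in RGCs, 1 was higher and 8 lower in mKO with a median of -0.34, beside 16.3% of all genes higher and 21.2% lower and a median of -0.0024. The median of the list was 0.0065 with the GC trend removed. C1ql1 and C1ql2, secreted synaptic organizers, were at 27.3 ± 5.34 and 39.6 ± 8.41 RPM in WT RGCs and at 11.01 ± 0.762 and 19.1 ± 2.15 in mKO RGCs, log2 differences of -1.41 (limma adjusted p = 0.0010) and -1.16 (limma adjusted p = 0.0021). C1qtnf4 fell by 0.92 on the log2 scale (limma adjusted p = 0.00064) and C1qbp, a mitochondrial protein named for its binding of C1q, fell by 0.49 (limma adjusted p = 0.0037). The collagen Col8a1 was higher in mKO, by 1.36 in RGCs and 2.02 in non-RGCs (limma adjusted p = 0.014 and 0.0048). With the GC trend removed the lower calls numbered 3 in place of 8, and C1qtnf4 stood at 0.05.

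Of 14 ligands and receptors that act on microglia, 13 could be tested in RGCs, with 1 higher and 3 lower in mKO and a median of -0.12. Beside 16.3% of all genes called higher and 21.2% lower, these counts are near or under the background and are no result about the list. Csf2ra, a subunit of the GM-CSF receptor, fell by 0.82 on the log2 scale (SE 0.13, limma adjusted p = 0.0033). Gas6, a bridge between dying cells and phagocytes, fell by 0.42 in RGCs (limma adjusted p = 0.019) and by 0.64 in non-RGCs (limma adjusted p = 0.027). Tgfb1, which microglia need to keep their identity, fell by 1.03 in RGCs (SE 0.28, limma adjusted p = 0.026), and its receptor Tgfbr1 rose by 0.36 (limma adjusted p = 0.041). With the GC trend removed limma called none of these 4.

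Markers of other cell types were measured beside these results. Border macrophage genes, which mark macrophages of vessels and of the hyaloid, were also read mainly in RGC libraries. In both genotypes 8 of 8 tested were higher in RGCs, beside 26.4% of all genes in WT and 29.1% in mKO. The summed level of the list was 46.4, 260 and 45.8 RPM in WT RGC libraries A, B and C and 194, 62.7 and 47.2 in mKO RGC libraries A, B and C. Mrc1, the mannose receptor, was at 53.8 RPM in WT RGC library B and 47.3 in mKO RGC library A, against 2.64 to 10.9 in the other 4 RGC libraries. WT RGC libraries C and A, in which the summed level of the 10 genes was highest and lowest, were thus nearly equal for border macrophage genes (45.8 and 46.4 RPM). In mKO RGCs library A was highest and library C lowest for both lists. Between genotypes limma called none of the 8 in RGCs. Cd163 had 0 reads in all 6 non-RGC libraries.

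Of 18 markers of granulocytes, lymphocytes, mast cells and monocytes, 9 were at or under 3 reads in every library, among them Mpo and Cd3e, and 3 could be tested in RGCs, none of which limma called between genotypes. RGC markers were called lower in mKO RGCs for 10 of 12, beside 21.2% of all genes. Their summed level was 2059 to 2130 RPM in mKO and 2619 to 2766 in WT. Of 6 erythroid genes tested, 5 were called higher in mKO in each fraction, beside 16.3% of all genes in RGCs and 4.18% in non-RGCs. The erythroid genes summed to 24.8 to 30.7 RPM in mKO RGCs and 10.2 to 11.98 in WT RGCs, with Hbb-bt called in both fractions. Of the markers of photoreceptors, progenitors, astrocytes and Müller cells, and vessels, limma called 5 of 10, 3 of 10, 2 of 7 and 1 of 10 lower in mKO RGCs and none higher, beside 21.2% of all genes called lower. The part of these shifts in the values of the 10 genes was not tested.

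**Figure D5:**
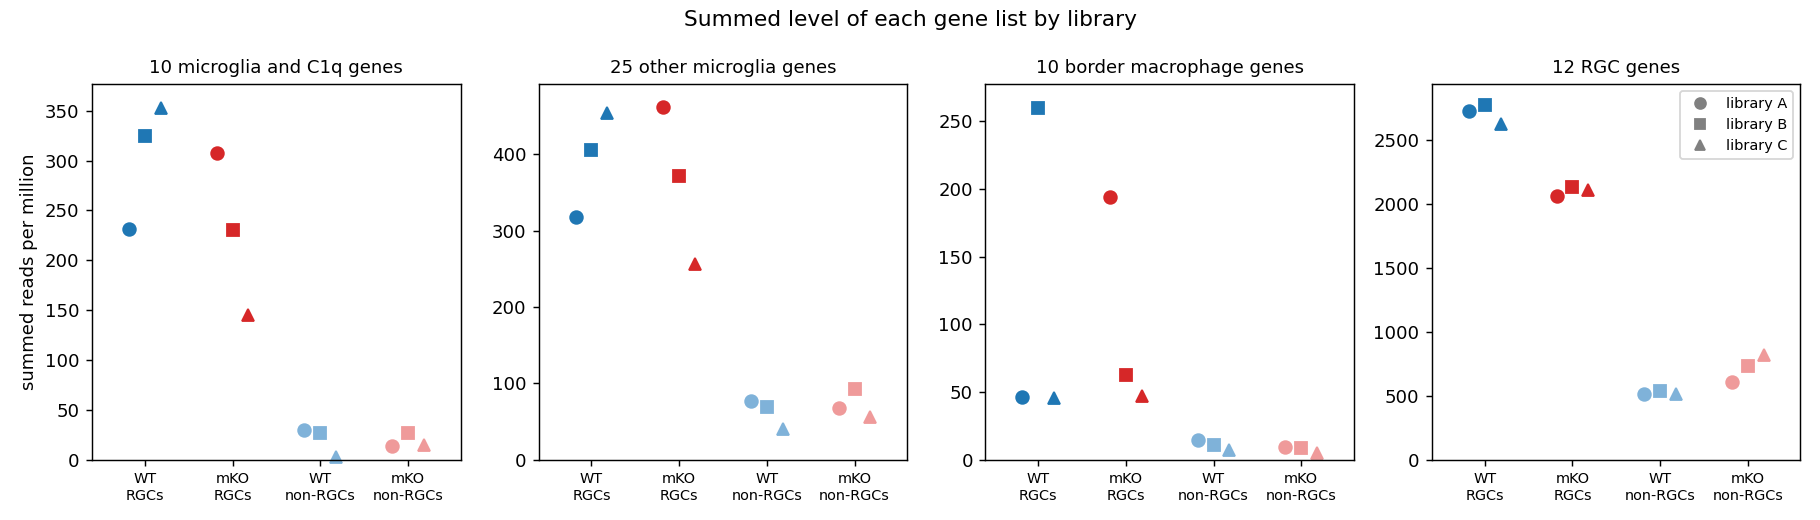
Summed RPM of the 10 genes, 25 other microglia genes, 10 border macrophage genes and 12 RGC genes in each library, with a linear axis from 0 in each panel. Among RGC libraries both microglia panels are lowest in mKO library C, while border macrophage genes peak in WT library B (260) and mKO library A (194) and the RGC genes separate the genotypes.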

How the data were processed

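Poly-A RNA of both fractions was sequenced as single reads. The authors aligned these to mm10 with STAR 2.3.1z4 (a version from the submitters' processing notes), assigned reads to genes by featureCounts, and scaled the libraries by DESeq. The names under which the means were deposited include the words primary and dedup, so duplicate reads may have been removed before counting. What such a step did to the levels was not tested. The deposited signal is the authors' mean, per genotype and fraction, of counts divided by size factors; columns of the authors' own comparison (fold change, its log2, p-value and adjusted p-value) were not used. Columns of per-sample values left unused numbered 0.

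The reads of each library were recovered from the 15 digits of these means, and every gene that had reads gave exactly 1 solution. Median-of-ratios size factors recomputed from them differed from the authors' by at most 4.3e-13 in relative terms. Libraries are lettered by depth because replicate numbers are not carried by the means. limma 3.58.1 in R 4.3.3, with a mean-variance trend, was fitted to log2(reads / size factor + 1), leaving out genes whose mean stayed under 10 in each group. Fold changes on this scale understate those of genes with few reads. Fractions were compared with size factors over all 12 libraries; the means of the 2 tables were never tested against each other. p-values were adjusted by Benjamini-Hochberg over all genes tested, with calls at 0.05. The design assumed such values, and the fit was run on simulated reads with known changes. The simulation gave every gene the same relative spread beyond counting error, so it is no check of the fit for genes as variable as these 10.

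Lengths, positions and GC content come from GENCODE M21 (GRCm38), matched for 96.4% of genes, with GC trends fitted by lowess over a share of 0.3. Alternatives were a pseudocount of 0.5, minimum means of 1 and 50, total-read scaling, removal of GC trends, no mean-variance trend, the rule of p under 0.05 with a fold of 1.5, and leaving out each library.

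The 10 genes and the lists were chosen with earlier results of these data known. Named besides the 10 genes were, of each list, the genes called in either fraction (at most the 4 with the smallest adjusted p), otherwise the 2 with the highest mean, together with Ezh2 and the 12 genes of most similar pattern. C3, Cd163, Mpo and Cd3e were chosen once their values were known. Python 3.11.15, numpy 2.4.6, pandas 2.3.3, scipy 1.17.1 and matplotlib 3.10.9 were used.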

Additional observations from a re-analysis of the deposited data

Results flagged for a closer look

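The genotype effect differed between RGCs and non-RGCs by the limma interaction test for 5 of the 12 RGC markers and for none of the 10 microglia and C1q genes. Over all genes 0.0969% were called. The difference of the log2 effects, RGCs minus non-RGCs, was -4.60 for Thy1, the antigen of the capture. It was -2.21 for Sncg, -2.16 for Pou4f2, -1.48 for Nefl and -1.05 for Nefm. Each of the 5 was called lower in mKO RGCs and higher in mKO non-RGCs. Groups of 3 libraries are too small to test a single library as an outlier.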

How the results depend on the processing

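No paired analysis was possible because the recovered libraries carry no replicate number. All 10 genes were called higher in RGCs in both genotypes under every alternative run, with log2 differences from 2.83 to 6.22 in WT and 2.20 to 5.02 in mKO. For mKO against WT in RGCs, 6027 genes were called, 2405 with the GC trend removed, 2615 by the rule of p and fold, and 3770 to 8184 leaving out 1 library. Of the 10 genes 0 were called, 1 (C1qa, adjusted p = 0.049) with a minimum mean of 50, 4 by the rule of p and fold, and 0 to 3 leaving out 1 library. P2ry12 turned to -0.19 with the GC trend removed, and leaving out 1 library gave -0.40 to 0.20 for Aif1 and -0.51 to 0.065 for Cx3cr1, both above 0 without mKO library C. In non-RGCs 1626 genes were called, 207 with the GC trend removed, 913 without the mean-variance trend, and 141 (without mKO library B) to 1614 leaving out 1 library. Of the tested members 0 to 1 were called. C1qa turned to 0.0016 with total reads and to 0.24 with the GC trend removed. Leaving out 1 library gave -0.82 to 0.27 for C1qa, -0.44 to 1.79 for C1qb, -1.17 to 1.66 for C1qc, -1.08 to 0.94 for Csf1r, -1.01 to 0.87 for Cx3cr1, -0.43 to 1.66 for P2ry12 and -0.0019 to 1.12 for Fcer1g, all at their lowest without WT library C. Without mKO library B, P2ry12 and Fcer1g were under the minimum mean and gave no value. The interaction gave 16 calls, 26 with total reads, 9 without the mean-variance trend and 7 to 237 (without mKO non-RGC library A) leaving out 1 library, and 0 of the 10 genes throughout. The cause was not tested. At 31 to 359 reads on the 10 genes per non-RGC library, depth limits what the genotype comparison in non-RGCs can show.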
